A study of Rattus norvegicus with 2 samples.

Results

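Clock output genes pass the rhythm of the circadian clock on to the rest of the cell. The 8 genes described here are Dbp, Tef, Hlf, Nfil3, Bhlhe40, Bhlhe41, Noct and Usp2. They were chosen by name, with earlier results of these data known. All 8 were represented on the array, by 14 probe sets annotated to exactly 1 gene, out of 14217 genes represented in all. The RNA came from the liver of male Wistar rats aged 2 months, all fasted for 18 h. The fasted group received nothing further, and the olive oil group was given 5 ml of oil by mouth, 16 ml per kg of body weight, and killed 4 h later. Each group was 1 array. The labels give no number of rats per array, so that pooling is unknown, and no hour of killing, so that the meal and the hour of the day cannot be told apart.

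In liver the clock is a feedback loop in which the activators Clock and Bmal1 bind E-box sequences and switch on Per and Cry genes, whose products then silence the activators. The same activators drive Dbp. Dbp, Tef and Hlf are the PAR bZIP factors, activators that bind the D-box sequence, and Nfil3 (E4BP4) is a bZIP repressor that competes with them for that sequence. Bhlhe40 and Bhlhe41 (DEC1 and DEC2) are repressors that bind the E-box. Noct, nocturnin, belongs to the CCR4 family and acts as a phosphatase on NADP(H), and Usp2 is a ubiquitin-specific protease. In rodent liver the transcripts of these genes differ in how far they swing over the day, and feeding time can shift them.

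After olive oil, Noct, Usp2 and Dbp had a higher signal than in fasted liver, by 7.95-fold, 3.40-fold and 2.88-fold. Tef was 1.33-fold higher. Hlf, Nfil3 and Bhlhe40 were 1.03-fold, 1.17-fold and 1.14-fold lower, and Bhlhe41 was too dim on both arrays to give a difference. A gene counted as measured when the mean log2 signal of its brightest probe set reached the median of all probe sets, which equals a signal of 41.4 and left 9209 genes. Of the 7 measured clock output genes, 3 reached a 2-fold increase and 0 a 2-fold decrease. Over all measured genes, 3.21% reached the increase and 2.92% the decrease. These are 296 and 269 genes, and with each array centred on its median they were 245 and 330. The median log2 difference, olive oil minus fasted, was 0.41 over the 7 genes and -0.01 over all measured genes. Because the 7 genes were chosen with earlier results of these data known, their counts and median are descriptions only. With 1 array per group there is no replicate error and no test, and every difference compares 2 arrays.

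**Figure D1:**
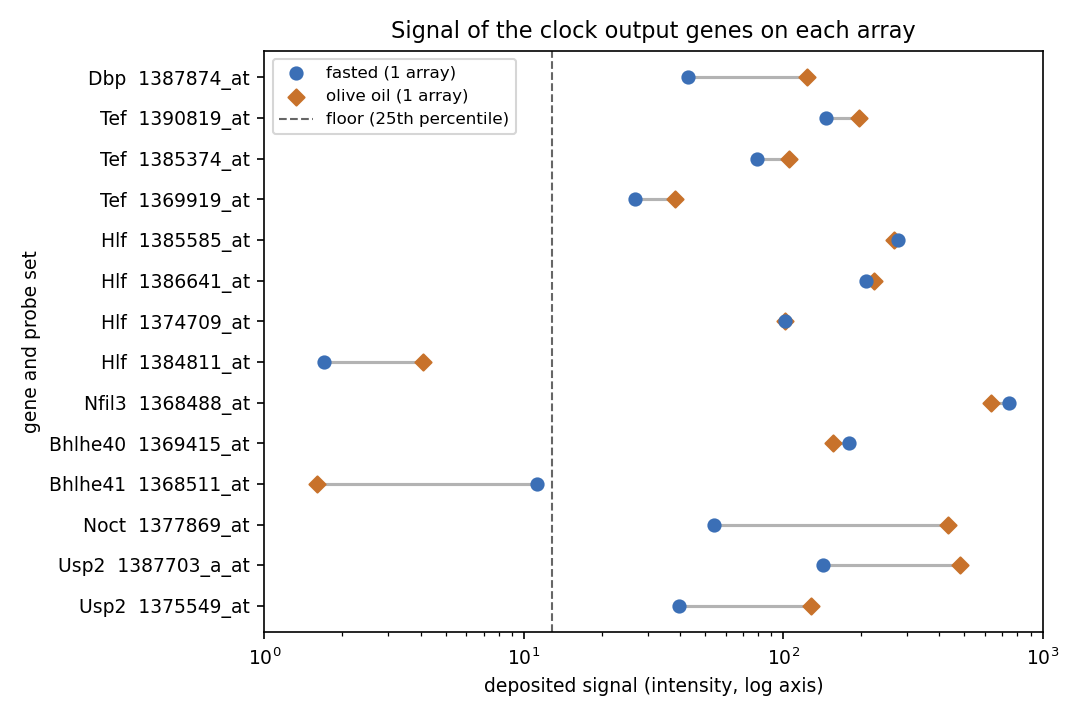
Deposited signal (log axis) of all 14 probe sets of the 8 clock output genes, as circles for the fasted array and diamonds for the olive oil array, 1 array each, with a dashed line at the floor of 12.8. The points lie farthest apart for Noct, at 54.2 and 431.1, among the probe sets above the floor, and coincide for a probe set of Hlf at 101.2.

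Among the PAR bZIP activators, the 3 genes did not move by the same amount. Dbp, named for its binding to the albumin D-site, had a signal of 43.0 on the fasted array and 123.9 on the olive oil array. Both values lay above the 41.4 of the filter, but the gene was dim, and it rested on 1 probe set. Its log2 difference of 1.53 ranked 89th from the highest of the 9209 measured genes. Genes this dim scattered more: among the 1667 measured genes within 0.5 of its mean log2 signal 10.2% were at least 2-fold different, against 4.98% around the brighter Noct. Of those 1667 genes, 40, Dbp included, differed as much as Dbp did.

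Tef, thyrotroph embryonic factor, was represented by 3 probe sets, and all were higher on the olive oil array. The brightest stood at 146.8 and 195.3, a log2 difference of 0.41. A second stood at 79.1 and 105.7, a difference of 0.42. The dimmest, at 26.9 and 38.2, had a difference of 0.51 and was below the filter on dim signals. The probe sets of Tef thus lay closer together than the scatter of 0.35 on the log2 scale found between measured probe sets of the same gene over 2290 genes. The size itself was common, since 15.6% of measured genes had a larger positive difference.

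Hlf, hepatic leukemia factor, was level on the 2 arrays. Its brightest probe set stood at 275.9 and 268.5, a log2 difference of -0.04. The next stood at 209.4 and 224.6, a difference of 0.10, and another at 101.2 on both arrays. The mean of these measured probe sets was 0.02, so that the sign of the difference depends on the probe set. The remaining probe set of Hlf, at 1.7 and 4.1, lay below the floor on both arrays and gives no difference.

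Nfil3, the repressor of the same D-box sequence, was slightly lower after olive oil. Its 1 probe set stood at 741.1 on the fasted array and 631.4 on the olive oil array, a log2 difference of -0.23, or 1.17-fold lower. Of 1233 measured genes within 0.5 of its mean log2 signal, 595 differed at least as much in either direction. The balance between activator and repressor transcripts, taken as the log2 difference of the activator minus that of Nfil3, was 1.76 for Dbp, 0.64 for Tef and 0.19 for Hlf. In this balance only Dbp passed the size of 2-fold.

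Of the E-box repressors, Bhlhe40 was nearly level and Bhlhe41 was not measurable. Bhlhe40 stood at 178.7 and 156.2 on its 1 probe set, a log2 difference of -0.19, or 1.14-fold lower. Among 1993 measured genes of like mean signal, 1275 differed at least as much. Bhlhe41 stood at 11.2 and 1.6, both under the floor of 12.8, so that its values have no order.

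Noct had the largest difference of the 8 genes. Its 1 probe set stood at 54.2 in fasted liver and 431.1 after olive oil, a log2 difference of 2.99. That ranked 6th from the highest of 9209 measured genes. Within 0.5 of its mean log2 signal lay 1947 measured genes, of which 4.98% were at least 2-fold different and 2, Noct included, differed as much as Noct. Its relatives of the same enzyme superfamily, which trim poly(A) tails or cleave related phosphodiesters, showed smaller differences. Of 5 measured relatives, 0 were at least 2-fold different, against 6.14% of all measured genes, so few genes that the count cannot be set apart from that share. The median log2 difference of the relatives was -0.18. Cnot6, a deadenylase of the CCR4-NOT complex, had the largest at -0.49, although its probe sets ranged from -0.49 to 0.09, and Pde12, a mitochondrial deadenylase, stood at 0.35.

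Usp2 was higher on both of its probe sets. The brightest stood at 141.8 on the fasted array and 482.2 on the olive oil array, a log2 difference of 1.77. The other stood at 39.8 and 128.4, a difference of 1.69 or 3.23-fold. The suffix of the brighter probe set marks it as able to bind several transcripts of the gene. The other carries no such suffix, but it lay under the filter's signal of 41.4 in fasted liver and counted as measured through the olive oil array. Usp2 ranked 58th from the highest of the measured genes, and of 1987 measured genes of like mean signal 18, Usp2 included, differed as much.

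**Figure D2:**
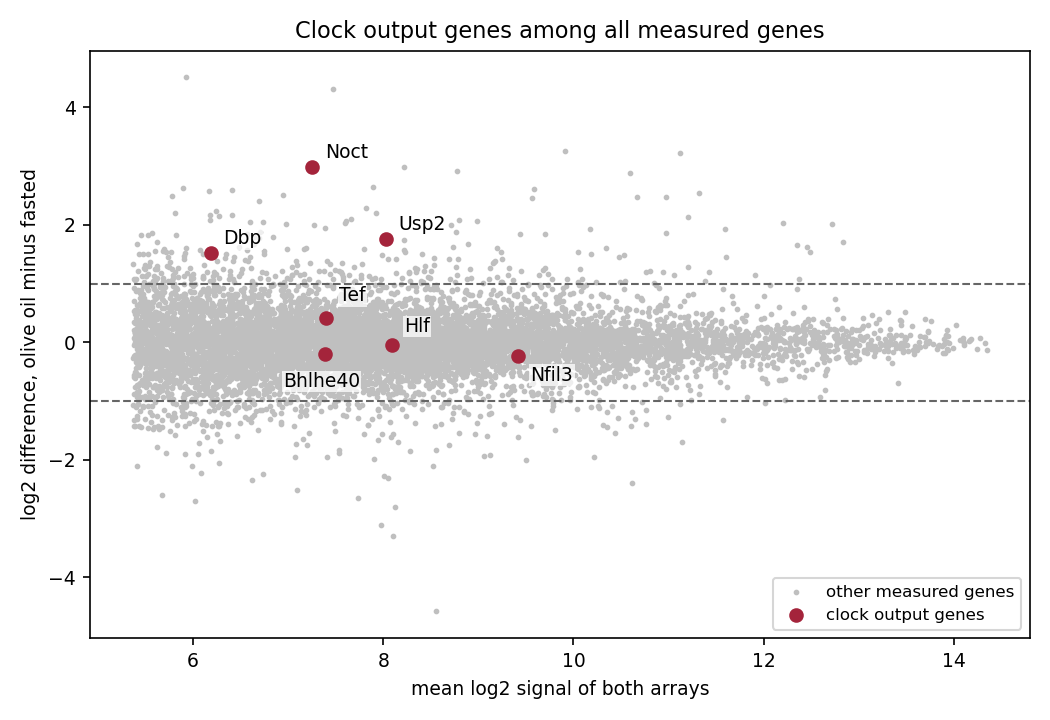
Log2 difference, olive oil minus fasted, against the mean log2 signal of both arrays for the 9209 measured genes (grey) and the 7 measured clock output genes (red), with dashed lines at 2-fold. Noct, Usp2 and Dbp lie above the upper line at 2.99, 1.77 and 1.53, and Tef, Hlf, Bhlhe40 and Nfil3 lie between the lines.

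The genes nearest to the 3 in log2 difference were of mixed kinds. With likeness taken as the gap in log2 difference over the 2 arrays, those nearest to Noct were Slc13a5, a citrate transporter, at a gap of 0.0012, and the chemokine gene Cxcl1 at 0.078. Those nearest to Usp2 were the kinase gene Tnk2 at 0.0076 and Procr, the endothelial protein C receptor, at 0.023. Those nearest to Dbp were Ppy, pancreatic polypeptide, at 0.0017 and the mitochondrial ribosomal protein gene Mrps31 at 0.0027. With 2 arrays each gene has a single difference, so that a small gap says only that 2 genes differed by the same amount.

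The sequence just before the start of the 3 genes with the higher signal is shown because these genes moved the same way. The sequences are RefSeq's on GRCr8, 250 bases before the annotated start, 5′ to 3′ on the gene's strand. They were taken at chr2:137421824-137422073, plus strand, for Noct, at chr8:53310620-53310869, plus strand, for Usp2, and at chr1:105312006-105312255, plus strand, for Dbp. Capitals mark a match to one of the clock motifs searched below.
Noct: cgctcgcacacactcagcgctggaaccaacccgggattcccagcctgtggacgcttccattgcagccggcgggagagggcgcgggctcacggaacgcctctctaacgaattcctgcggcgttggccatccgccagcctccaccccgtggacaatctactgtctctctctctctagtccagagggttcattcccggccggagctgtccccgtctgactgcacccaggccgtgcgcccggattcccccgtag
Usp2: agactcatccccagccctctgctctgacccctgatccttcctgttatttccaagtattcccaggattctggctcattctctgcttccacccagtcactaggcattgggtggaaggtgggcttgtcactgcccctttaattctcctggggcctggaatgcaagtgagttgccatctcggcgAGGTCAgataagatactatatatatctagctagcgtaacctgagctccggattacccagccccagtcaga
Dbp: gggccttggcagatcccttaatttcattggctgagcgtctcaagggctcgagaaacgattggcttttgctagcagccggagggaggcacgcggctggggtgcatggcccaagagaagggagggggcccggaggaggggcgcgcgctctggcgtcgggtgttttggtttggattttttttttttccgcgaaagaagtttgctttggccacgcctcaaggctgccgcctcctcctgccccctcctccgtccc

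Of the 8 genes, 7 matched a promoter entry, and Hlf was not among them. The motifs were searched on both strands in the 250 bases before the start. They were the E-box CACGTG, the variant E-box CACGTT, the D-box as TTATGTAA or TTACGTAA, the core of the ROR and REV-ERB element as AGGTCA, and the cyclic AMP response element as TGACGTCA. None of these motifs overlapped another in the clock output genes. The E-box was found in Tef, Bhlhe40 and Bhlhe41, 3 of the 7, and in 5.59% of all 33469 promoters of the same length. The AGGTCA core was found in Usp2, 70 bases before the start, and in 14.1% of all promoters. The variant E-box, the D-box and the cyclic AMP element, found in 4.07%, 0.932% and 1.59% of all promoters, were in none of the 7. The letters of the E-box therefore stood in the windows of genes that were level, slightly higher or too dim, and not in the windows of Noct, Usp2 and Dbp. A match describes letters in a short window, and the absence of a match says nothing about sites elsewhere in the gene. The E-box windows, with the motif in capitals, are those at chr7:115206612-115206651, plus strand, for Tef, at chr4:143174213-143174252, plus strand, for Bhlhe40, and at chr4:180569381-180569420, minus strand, for Bhlhe41. The motif began 198, 220 and 48 bases before the start, respectively.
Tef: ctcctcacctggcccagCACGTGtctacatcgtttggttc
Bhlhe40: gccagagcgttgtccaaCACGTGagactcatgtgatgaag
Bhlhe41: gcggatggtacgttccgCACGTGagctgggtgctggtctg

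The core clock genes went in several directions. Of 22 core clock genes listed, 18 were represented and 14 measured, and 1 of the 14 was at least 2-fold different, against 6.14% of all measured genes. The activators were lower: Bmal1 stood at 272.6 and 138.9, a log2 difference of -0.97, and Npas2, which can replace Clock, at 283.0 and 149.7, a difference of -0.92. Both lay just short of 2-fold, and Bmal1 passed it, at -1.05, once each array was centred on its median. Clock itself stood at -0.10 on its brightest probe set and at -0.63 on the lowest of 3. Among the repressors, Per3 stood at 37.0 and 88.5, a log2 difference of 1.26, and was the member at least 2-fold higher. It was below the filter's signal in fasted liver and passed through the olive oil array, and its difference was 0.98, under 2-fold, with an offset of 16 added to the signals. Cry1 went the other way, from 161.2 to 101.0, a difference of -0.67. Per1, Timeless, Bmal2 and Rorb were too dim for the filter and are named after their values were seen. Per1 stood at 7.0, under the floor of 12.8, on the fasted array and at 80.5 on the olive oil array. The others were lower on the olive oil array. Timeless stood at 40.7 and 13.6, Bmal2 at 27.9 and 13.5, and Rorb at 19.8 and 1.8, the last under the floor.

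The nuclear receptors that link the clock to Nfil3 and Bmal1 included 2 with a higher signal. Nr1d1, REV-ERB alpha, a repressor of both, stood at 206.9 and 366.7, a log2 difference of 0.83. Nr1d2, REV-ERB beta, stood at 485.3 and 714.9, a difference of 0.56, with another probe set at -0.06 and a mean over its probe sets of 0.20. There were 4 measured kinase and ligase genes that set the stability of Per and Cry proteins. None was on its brightest probe set at least 2-fold different, against 6.14% of all measured genes. Btrc, a ubiquitin ligase subunit, was lowest at -0.86, with its other measured probe set past 2-fold at -1.01, and Gsk3b, a kinase, highest at 0.23.

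Genes reported as D-box targets of the PAR bZIP factors or of Nfil3 were split evenly by sign. Of 16 listed, 14 were represented and 12 measured, of which 2 passed 2-fold upwards and 0 downwards, with 6 differences above 0 and 6 below. The shares past 2-fold over all measured genes were 3.21% upwards and 2.92% downwards. The median log2 difference was 0.02, next to -0.01 for all measured genes, and turned to -0.05 with centred arrays, -0.012 with quantile scaling and -0.0053 with loess. The 2 were Por, the electron donor of microsomal P450 enzymes, at 2.47 and 2.21 on its pair of probe sets, and Alas1, which starts heme synthesis, at 1.93. Below 0, Nr1i3, the nuclear receptor CAR, stood at 743.4 and 379.1, a difference of -0.97, and the acyl-CoA thioesterase genes Acot3, Acot4 and Acot2 at -0.95, -0.66 and -0.45. The sign of Acot2 depends on the probe set, with a range from -0.64 to 0.04 over 3. After centring of the arrays Nr1i3 and Acot3 passed 2-fold, at -1.04 and -1.03. These 4 genes were named after their values were seen. So was Cyp7a1, which stood above 0, at 203.5 and 310.8, a difference of 0.61. Alb, whose promoter gave Dbp its name, differed by 0.07, and by -0.0047 with centred arrays.

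Other liver genes known for a daily rhythm included several with a higher signal. Of 12 listed, 9 were measured, 4 passed 2-fold upwards and 0 downwards, and the median log2 difference was 0.50. Over all measured genes the shares were 3.21% and 2.92% and the median -0.01. Like the other lists, this list was chosen with earlier results of these data known, so the comparison is descriptive only. The median of the list was 0.38 with no filter and 0.81 with the mean over measured probe sets. Coq10b, which binds coenzyme Q, stood at 688.0 and 3850, a log2 difference of 2.48 on 1 measured probe set. Tfrc, the transferrin receptor, stood at 1.16, Cdkn1a, the cell cycle inhibitor p21, at 1.07 and Lpin1, a phosphatidate phosphatase, at 1.03. Lpin1 and Cdkn1a were just past 2-fold and stood at 0.96 and 0.999 with centred arrays, and their second probe sets stood at 0.93 for Lpin1 and 1.51 for Cdkn1a.

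**Figure D3:**
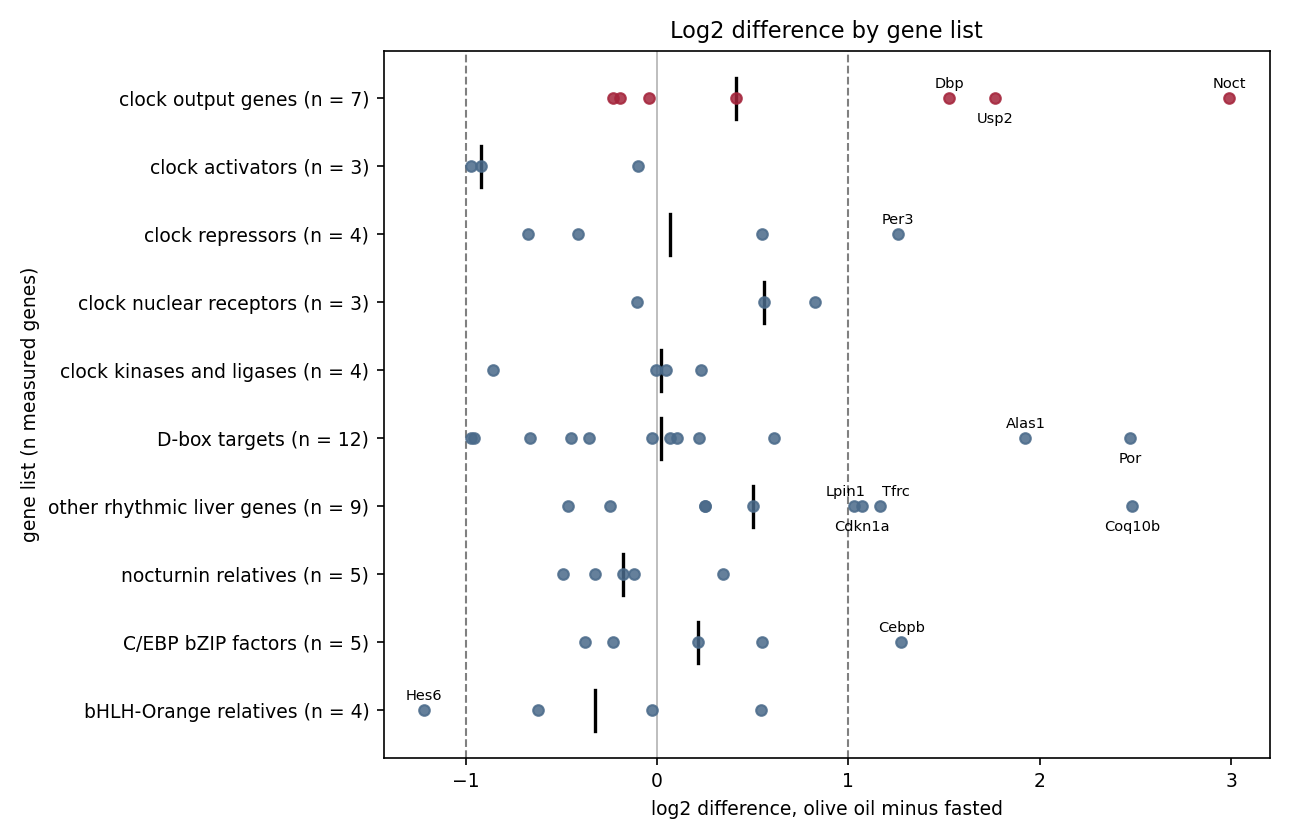
Log2 difference, olive oil minus fasted, of each measured gene (points) by gene list, with the list's median as a black bar and dashed lines at 2-fold, and names for genes past a line. The clock output genes have a median of 0.41, the D-box targets 0.02 and the other rhythmic liver genes 0.50.

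The closest relatives of the transcription factors by family were compared in the same way, next to the 6.14% of all measured genes at least 2-fold different. Of 5 measured C/EBP factors, bZIP proteins that bind sites like the D-box, 1 was at least 2-fold different. This was Cebpb, an activator of stress and fasting genes, at 1515 and 3669, a log2 difference of 1.28, and Cebpd followed at 0.55. Of 4 measured relatives of Bhlhe40 in the bHLH-Orange group, 1 was at least 2-fold different, Hes6, at 843.8 and 363.1, a difference of -1.22. Heyl, also of this group, stood at -0.62.

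The tissue label was checked against marker genes. All 7 represented hepatocyte markers were measured, with signals between 4274 and 18920 and a sum of 88503 for fasted liver and 92504 after oil. The summed markers of Kupffer, stellate, endothelial and erythroid cells after oil were 1.18, 0.983, 1.12 and 0.968 times those of fasted liver. Of 7, 6, 5 and 2 represented genes in these lists, none was at least 2-fold different, against 6.14% of all measured genes. For cholangiocytes, of 4 genes represented 2 were measured, and the sum went from 285.9 to 218.4. For lymphocytes, of 4 genes represented 1 was measured, the sum went from 225.5 to 175.0, and Cd3d was under the floor on both arrays. Genes of neighbouring tissues (pancreas, fat, muscle, gut) summed to 1881 and 2020, with 2 of 5 measured, and the pancreatic gene Cela1 made up 1764 and 1864 of these sums. Prss1, also of pancreas, was below the filter at 12.2 and 18.8, the fasted value under the floor. Where the Cela1 signal came from was not tested. Fabp2 of gut, also measured, stood at 87.4 and 63.8, lower after oil. Below the filter, Ckm of muscle stood at 13.5 and 44.9 and Adipoq of fat at 3.2 and 28.2. In fasted liver Adipoq was under the floor of 12.8 and Ckm just above it. Their directions therefore rest on dim values. The neutrophil genes S100a8 and S100a9, the 2 represented of 3, were higher after olive oil, from a summed signal of 94.9 to 328.8. The part of these genes in the higher signal of Noct, Usp2 and Dbp was not tested. In whole liver, a change in the number of cells of a type and a change in RNA per cell cannot be told apart.

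The order of the 7 measured genes was the same under each processing alternative in which all 7 were measured, and under a filter at the 75th percentile, which left 3 of them. Noct lay between 2.67 and 3.01 on the log2 scale, Usp2 between 1.66 and 1.79 and Dbp between 1.25 and 1.53, all past 2-fold wherever they were measured. Tef lay between 0.34 and 0.43, Bhlhe40 between -0.27 and -0.18 and Nfil3 between -0.30 and -0.21. Hlf lay between -0.11 and 0.02 and changed sign only with the mean over its probe sets.

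**Figure D4:**
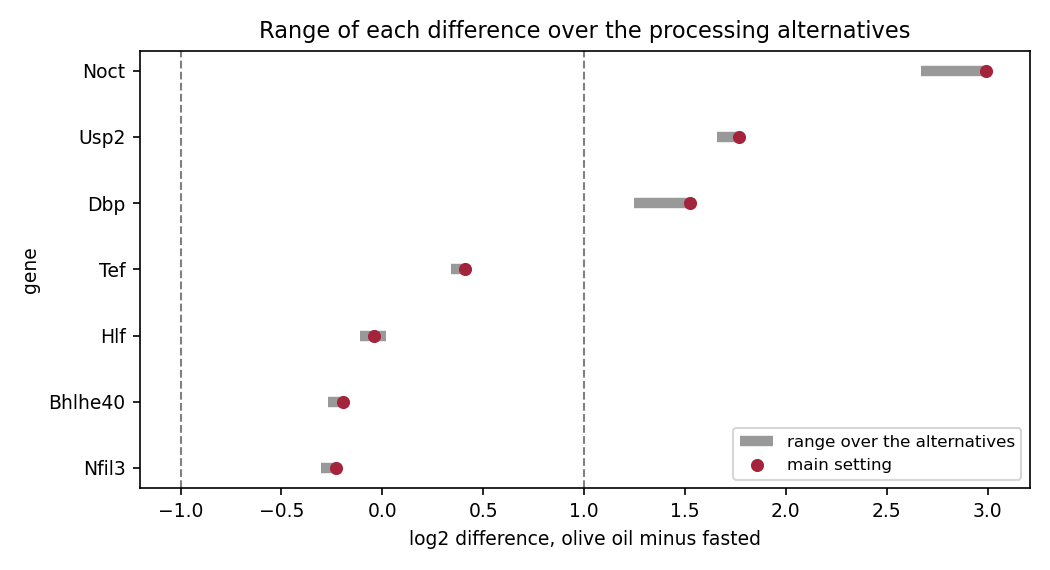
Log2 difference, olive oil minus fasted, of each measured clock output gene in the main setting (points) and its range over the processing alternatives (grey bars), with dashed lines at 2-fold. The bars of Noct, Usp2 and Dbp stay right of the upper line, the lowest end being 1.25 for Dbp, and the other bars stay between the lines.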

How the data were processed

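Liver RNA was labelled with biotin and hybridized to Affymetrix rat arrays, 1 array per group, per the labels' protocols. The authors deposited a linear signal intensity for each probe set on each array, made with Affymetrix Expression Console per the submitters' processing notes. How this tool was set (algorithm, version, filters) is not given in the sources used here. Means after trimming 2% at each end were 200.1 on both arrays, so a common scaling before deposit is likely, which would hide a shift shared by most genes.

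Leaving out 57 control probe sets, signals of 31042 were raised to a floor of 12.8, their 25th percentile, and put on the log2 scale. Differences are olive oil minus fasted, and 2-fold stood in for a test. The files hold no detection calls, and the number of arrays limits the precision.

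Platform annotation gave 20826 probe sets 1 gene, 436 several and 9780 none. Symbols of 20758 were updated by gene ID through RefSeq's GRCr8 table. A gene was its brightest probe set.

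The members and the gene lists were chosen with earlier results of these data known. The genes named are the 8 members and, in each list, every measured gene at least 2-fold different and those with the 2 largest differences. The 2 genes nearest in difference to each member past 2-fold are also named. Exceptions are marked where they stand, save the markers and Alb and Clock, which were named after their values were seen. Alternatives covered scaling, floor, filter, probe sets per gene and threshold. The functions were tested on simulated data. Loess came from statsmodels 0.14.6 and figures from matplotlib 3.10.9, with scipy 1.17.1, pandas 2.3.3 and numpy 2.4.6 under Python 3.11.15.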

Additional observations from a re-analysis of the deposited data

How the results depend on the processing

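The count of 3 clock output genes at least 2-fold higher was also found with arrays centred on their medians, quantile or loess scaling, an offset of 16, no floor or one at the 50th percentile, the mean over probe sets, no filter, without suffixed probe sets, and at 1.5-fold. It was 2 at 3-fold. With a filter at the 75th percentile of signal, 3 of the 8 genes were measured, 1 of them was at least 2-fold higher, and their median was -0.039. That filter keeps fewer genes, and Noct and Dbp were among those lost. The count at least 2-fold lower was 0 in every alternative.

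The core clock count of 1 was 2 with arrays centred on their medians, 0 with an offset of 16, 4 of 18 with no filter, 0 of 7 with the filter at the 75th percentile, 6 at 1.5-fold and 0 at 3-fold. The D-box target count of 2 was 4 with arrays centred on their medians, and 6 at 1.5-fold. Centring lowers every difference by the same amount, which moved Bmal1, Nr1i3 and Acot3 past 2-fold; the offset shrinks dim differences such as that of Per3. Over all measured genes, 565 of 9209 were at least 2-fold different in the main setting. The total was 575 of 9209 with arrays centred on their medians and 397 of 9207 with an offset of 16. It was 1482 of 14217 with no filter and 240 of 5505 with the filter at the 75th percentile. At 1.5-fold it was 1800 of 9209, and at 3-fold 122 of 9209. The list counts are to be read beside these totals. No paired analysis was possible because each group was 1 array. No alternative could leave out an array for the same reason, and dim signals limit Dbp, Per3, Per1 and Bhlhe41.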
